A study of Arabidopsis thaliana with 9 samples.

Results

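Gabaculine (GAB) is an inhibitor of glutamate 1-semialdehyde aminotransferase, the last enzyme on the way to 5-aminolevulinic acid (ALA), from which plants make chlorophyll and heme. The genes described here are those whose transcript signal stood apart with GAB while it stayed close to untreated Col-0 in gun4-1, a mutant of the Mg chelatase regulator GUN4. There were 46 such genes, 38 higher and 8 lower with GAB, among 13513 probe sets that the array annotation ties to a single gene, out of 22746 probe sets in all. A probe set, which is a group of short oligonucleotides read as 1 value, belonged to them when its mean log2 signal in GAB was at least 0.585 (1.5-fold) from that in Col-0, its mean in gun4-1 was less than 0.3 from Col-0, and all 3 GAB arrays lay beyond each of the 6 other arrays on the same side. Genes whose symbols begin with UGT, CYP, GSTU, ALDH, EXPA, GH9 or XTH were left out, which removed a single gene, the glycosyltransferase gene UGT73C1 (1.68 higher with GAB and 0.28 higher in gun4-1 on the log2 scale).

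The 9 arrays came from Arabidopsis thaliana seedlings that were kept in darkness for 3 days on solid medium and then lit for 6 h. They fell into 3 groups of 3 arrays: Col-0 seedlings with 10 µM GAB in the medium, untreated seedlings of the mutant gun4-1 in the Col-0 background, and untreated Col-0 seedlings. All values are log2 signals of whole seedlings, in which fewer cells of a type and less RNA per cell cannot be told apart. The study's methods state in general that experiments were repeated independently, but the labels do not say what was separate between the arrays of a group, so the spread given below is that between arrays, which may be technical in part, and their number limits the precision. Array medians lay between 6.41 and 6.57, and arrays of the same group correlated at 0.996 to 0.997 over all probe sets. Among fixed markers only RCA, a photosynthetic gene, stood for green tissue (14.4, 14.3 and 14.3 in GAB, gun4-1 and Col-0) and EXPA7, a root hair gene, for roots (5.29, 6.15 and 5.58). The other markers and GUN4 itself carried no gene name in the annotation, so the labels of the mutant arrays were not checked.

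The 46 genes were chosen by their signals in all 9 arrays and in all 3 contrasts among the groups, so their differences between groups are a description and no test of them is given. In a fit over all probe sets (limma, with p adjusted after Benjamini and Yekutieli to 0.05 or less and a change of over 1.5-fold), 27 of the 38 higher genes and 5 of the 8 lower genes were called for GAB against Col-0, where 0.769% of all probe sets were called higher and 0.69% lower. For GAB against gun4-1, 29 of the 38 and 5 of the 8 were called, beside 2.48% and 1.32% of all probe sets. The demand on single arrays alone was met upward by 2.81% and downward by 3.11% of all probe sets. Nothing is read from these counts, which the choice itself raises. Without Col-0 replicate 3, 17 of the higher and 3 of the lower genes were called against Col-0, and the lower genes called were 2 without GAB replicate 2, 3 without GAB replicate 3 and 3 without Col-0 replicate 2.

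The way from all probe sets to the 46 genes differed between the directions. Upward, 242 probe sets passed the limit for GAB against Col-0, 69 of them had gun4-1 within 0.3 of Col-0, and 60 also met the demand on single arrays. Downward, 300 passed the first limit, but only 23 of them had gun4-1 near Col-0 and 18 met the last demand. Of these 60 and 18 probe sets, 21 and 10 carried no gene name and are not described further.

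**Figure D1:**
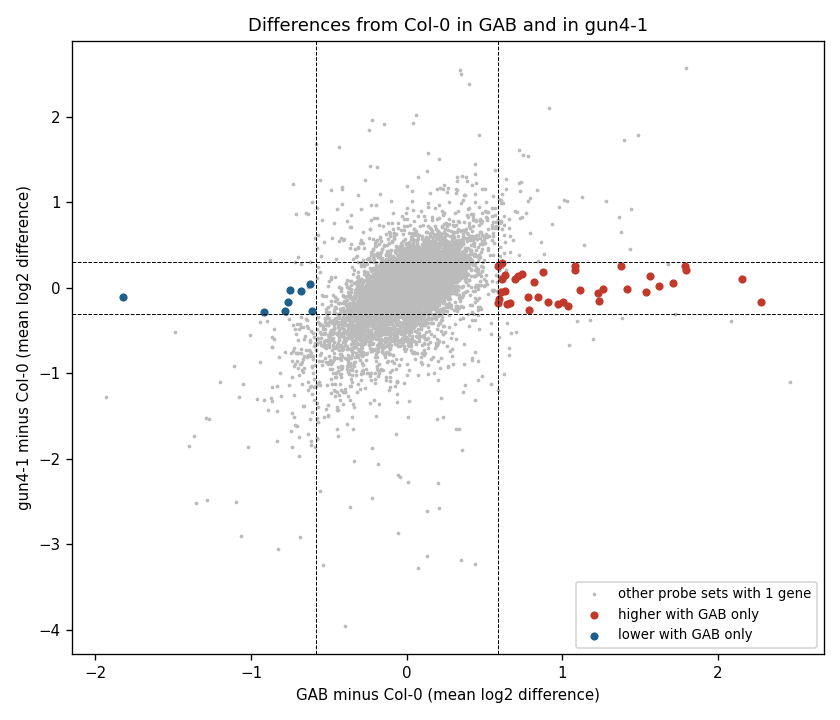
Each point is a probe set with 1 gene, with the mean log2 difference of GAB from Col-0 on the horizontal axis and that of gun4-1 from Col-0 on the vertical axis; red points are the 38 higher and blue points the 8 lower genes, grey points are all others, and dashed lines stand at 0.585 and 0.3 on either side of zero. Both differences contain the same Col-0 arrays, which alone ties the axes together, and the red points reach 2.28 while all but 1 of the blue points stay above -1.

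Detoxification in plants runs in steps: enzymes oxidise or conjugate a foreign compound, and transporters then move it to the vacuole or out of the cell. Etiolated seedlings that meet light also build chloroplasts, end the rapid growth of the hypocotyl and remodel their cell walls, where class III peroxidases cross-link or loosen wall polymers and lipid-modifying enzymes form cutin, suberin and waxes. The 46 genes are ordered below by such roles, with the higher genes first. Roles are those generally known for the gene or its family, and 16 of the 46 genes are given none.

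Among the higher genes 11 were put together here as acting on lipids or the cell wall, after the genes were known and from no fixed list, and the share of such genes among all probe sets was not counted. Their differences from Col-0 ran from 0.59 to 2.28 on the log2 scale, with a median of 1.00, beside 0.94 over all 38 higher genes and 0.00 over all probe sets. The largest was that of At2g23540, an enzyme of the GDSL lipase family, a family with many members that cut or join lipids of the plant surface. Its log2 signal was 6.24, 5.80 and 7.12 in GAB, 3.74, 4.01 and 4.10 in gun4-1, and 4.0, 4.14 and 4.19 in Col-0. The lowest GAB array stood 1.61 above the highest of the others, and the gene was 4.85-fold higher with GAB than in Col-0. At1g74460, of the same family, had 6.04, 5.39 and 6.34 in GAB, 4.38, 4.06 and 4.56 in gun4-1, and 4.13, 4.56 and 4.46 in Col-0 (2.91-fold higher with GAB). The arrays of gun4-1 and Col-0 overlapped one another, while the GAB arrays lay apart from both, as the choice demanded of every gene.

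At5g12420, an acyltransferase of the wax ester synthase family, had 4.91, 5.20 and 6.20 in GAB, 3.94, 3.93 and 4.18 in gun4-1, and 3.79, 3.77 and 4.05 in Col-0, a 2.95-fold higher mean with GAB. The array labelled GAB replicate 3 lay 1.00 above the next GAB array, while the other groups stayed close together. Among class III peroxidases, secreted enzymes that use hydrogen peroxide on wall polymers, 3 belonged to the higher genes. At1g68850 had 4.90, 4.77 and 5.69 in GAB, 3.80, 3.46 and 3.81 in gun4-1, and 3.65, 3.70 and 3.76 in Col-0. At2g35380 had 5.47, 5.10 and 6.42 in GAB, 4.45, 4.27 and 4.39 in gun4-1, and 4.46, 4.29 and 4.55 in Col-0. Both were more than 2-fold higher in the mean (2.67-fold and 2.34-fold), and in both it was again GAB replicate 3 that gave the highest value. Prx37 was steadier, with 6.97, 6.95 and 7.27 in GAB, 5.92, 6.08 and 6.05 in gun4-1, and 6.28, 6.31 and 6.24 in Col-0 (1.73-fold higher with GAB), and here every gun4-1 array lay below every Col-0 array.

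Another 5 genes complete this set. At2g22510, which codes for a hydroxyproline-rich glycoprotein of the wall, was 2.01-fold higher with GAB, but its signal was among the dimmest, at 4.48 ± 0.37 (SD, n = 3) in GAB against 3.31 ± 0.08 in gun4-1, and its 3 Col-0 arrays held the same value of 3.47. At1g19900, related to glyoxal oxidase, an enzyme that makes hydrogen peroxide, was 1.56-fold higher. The lipid transfer protein genes At3g22620 and At2g18370, whose products carry lipids outside the cell, were 1.53-fold and 1.5-fold higher. At2g39430, a dirigent-like gene from a family that guides the coupling of phenolic units, had 10.30, 10.16 and 10.37 in GAB, 9.68, 9.92 and 9.81 in gun4-1, and 9.50, 9.93 and 9.51 in Col-0. Its lowest GAB array was 0.23 above the highest Col-0 array, which itself lay above all gun4-1 arrays.

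The 5 most variable of all 46 genes in GAB were At2g23540, At5g12420, At1g74460, At1g68850 and At2g35380, all of the lipid and wall set. Their SD over the GAB arrays was 0.49 to 0.68, beside a median of 0.18 over the 38 higher genes, and only 0.343% of all probe sets had an SD in GAB as large as the smallest of them. GAB replicate 3 was the highest GAB array for 9 of the 11 genes and GAB replicate 2 the lowest for 8 of the 11. Over all 38 higher genes, these 11 included, GAB replicate 3 was highest for 20. That count contains the 9 genes above, so it does not show whether the pattern reaches beyond this set. GAB replicate 3 was highest for 3 of the 5 stress genes described below, which are too few to read. Over all probe sets with 3 distinct GAB values GAB replicate 3 was highest in 31.4%. Without it the differences from Col-0 were 1.91 for At2g23540, 1.18 for At5g12420, 1.33 for At1g74460, 1.13 for At1g68850 and 0.85 for At2g35380, each above the limit. The remaining arrays had been used in the choice as well, so these values are a description and no independent check. What sets GAB replicate 3 apart for these genes was not tested.

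**Figure D2:**
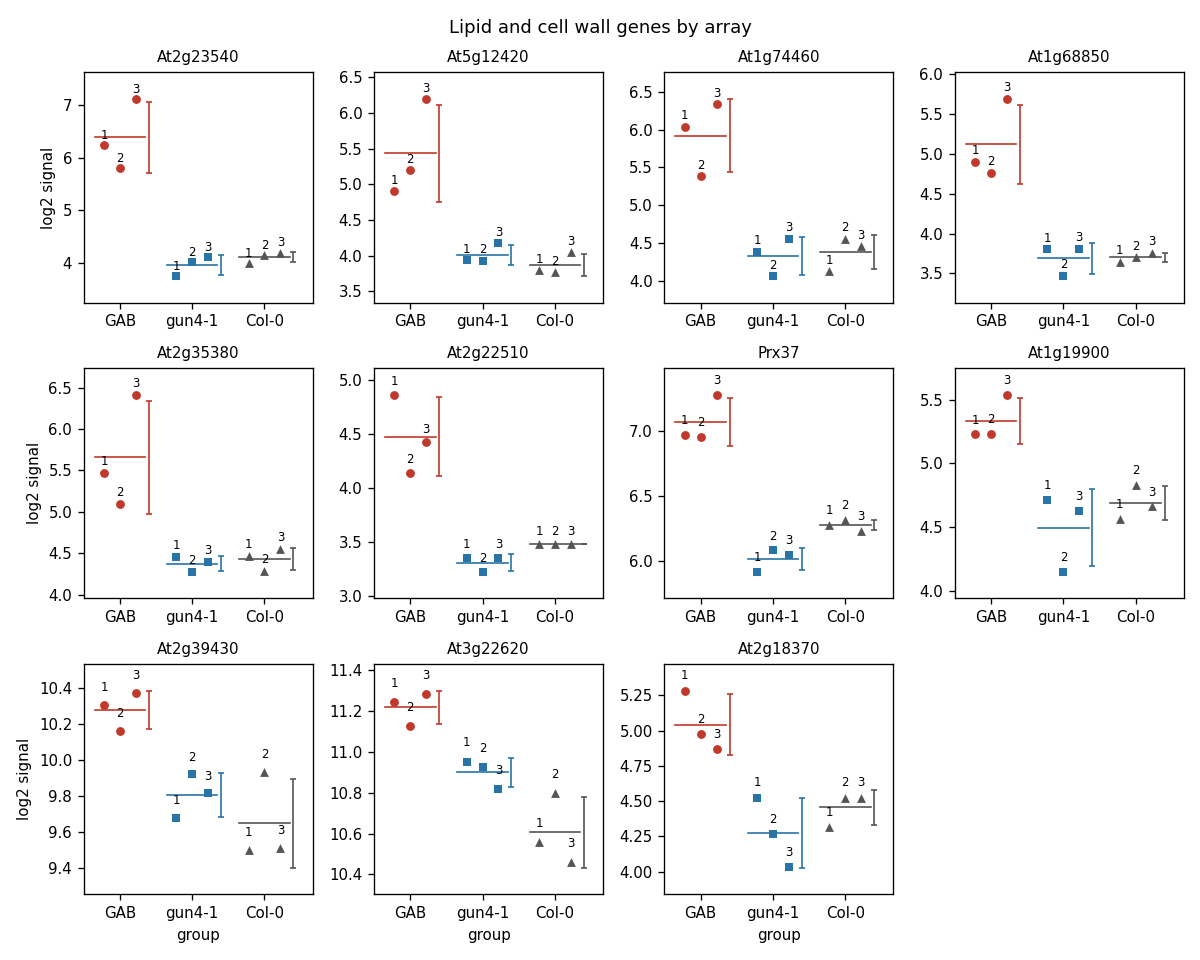
The 11 lipid and cell wall genes, 1 panel each, with the log2 signal of every array on the vertical axis (not starting at zero) in GAB (red), gun4-1 (blue) and Col-0 (grey); digits are replicate numbers, horizontal lines are means and bars to their right are ± SD over 3 arrays. In each panel the 3 GAB points lie above all others, and for 9 of the 11 genes GAB replicate 3 is the highest, as for At2g23540 with 7.12 against 6.24 and 5.80.

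Named relatives of these genes were looked up in a list of cell wall and extracellular proteins. Of its 24 probe sets, 1 was called higher with GAB, that of Prx37, and 2 were called lower, those of the expansin genes EXPB1 and EXPB3. EXPB1 and EXPB3 differed from Col-0 by -1.28 and -1.36 with GAB and by -2.48 and -2.52 in gun4-1. Called over all probe sets were 0.769% higher and 0.69% lower. The median difference over the list was -0.05, beside 0.00 over all probe sets, and no gene of the list but Prx37 was among the 46.

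A further 5 higher genes are tied to stress, defence or the removal of foreign compounds. They too were put together after the genes were known, and the share of such genes among all probe sets was not counted. Their median difference from Col-0 was 1.38, beside 0.94 over all 38 higher genes, and all of them were more than 2-fold higher with GAB. The mean over the 9 arrays was under 5 on the log2 scale for 2 of the 5. At2g04050 codes for a transporter of the MATE family, which exports or sequesters toxic and foreign compounds. Its signal was 6.09, 6.82 and 6.20 in GAB, 4.83, 4.81 and 4.68 in gun4-1, and 4.80, 4.74 and 4.69 in Col-0. The 6 untreated arrays spanned 0.16, and the lowest GAB array was 1.25 above them (3.08-fold higher mean with GAB). Its relative At2g04070 stayed near Col-0, with a difference of 0.25, and AER, a reductase of reactive carbonyls, was 1.36 higher with GAB but also 0.83 higher in gun4-1, which kept it from the 46 genes. On the list of xenobiotic transporters and reductases these were the only 3 probe sets with a name. Of the 3, 2 were called higher, beside 0.769% of all probe sets. The study lists a further gene, At2g04040, described as a multidrug transporter, as higher both with GAB and in gun4-1.

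At5g09570 codes for a small mitochondrial protein with paired cysteines. It had 6.69, 6.70 and 6.96 in GAB, 5.19, 4.98 and 5.43 in gun4-1, and 4.97, 4.74 and 5.26 in Col-0. At2g21640, a marker of oxidative stress, had 8.32, 8.43 and 8.63 in GAB, 7.48, 7.31 and 7.25 in gun4-1, and 7.17, 6.91 and 7.18 in Col-0. The pair was 3.47-fold and 2.60-fold higher with GAB, and in both genes the mean in gun4-1 lay slightly above that in Col-0, by 0.21 and 0.26. At1g66100 codes for a thionin, a small toxic peptide of plant defence, and had 5.84, 5.45 and 5.57 in GAB, 4.94, 4.89 and 4.57 in gun4-1, and 4.28, 4.60 and 4.74 in Col-0 (2.12-fold higher). At1g54540, related to the late embryogenesis abundant and NHL proteins, was 2.06-fold higher. None of the 3 probe sets on the list of heat shock proteins and none of the 6 on the defence list was called higher. The share over all probe sets was 0.769%.

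Enzymes without a tighter place were the methyltransferase At2g41380 and the hydrolase At4g36610, of the alpha/beta fold. At2g41380 had 5.86, 5.88 and 6.15 in GAB, 4.20, 4.48 and 4.26 in gun4-1, and 4.21, 4.18 and 4.37 in Col-0. At4g36610 had 5.81, 5.81 and 5.74 in GAB, 4.52, 4.50 and 4.94 in gun4-1, and 4.46, 4.65 and 4.90 in Col-0. They were 3.27-fold and 2.17-fold higher with GAB, and gun4-1 lay within 0.06 of Col-0 in both.

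Regulatory genes were few and their differences small. B70 and At4g05170 code for bHLH transcription factors, proteins that bind DNA as dimers. B70 had 6.96, 7.12 and 7.40 in GAB, 6.17, 6.71 and 6.54 in gun4-1, and 5.98, 6.59 and 6.29 in Col-0. At4g05170 had 6.90, 6.85 and 7.36 in GAB, 6.19, 6.39 and 5.89 in gun4-1, and 6.20, 6.40 and 6.18 in Col-0. The means were 1.83-fold and 1.71-fold higher with GAB, and for B70 the lowest GAB array stood only 0.25 above the highest gun4-1 array. At4g11610, a protein with C2 domains, which bind membranes in a calcium-dependent way, was 1.5-fold higher and had the same value of 5.46 on all 3 gun4-1 arrays. None of the 12 probe sets on the list of WRKY, MYB, bHLH and NAC factors was called. Of all probe sets 0.769% were called higher and 0.69% lower.

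Genes of nutrient handling numbered 3 and differed by less than 2-fold from Col-0. AAH codes for allantoate amidohydrolase, which releases ammonium from ureides during purine breakdown. Its signal was 8.87, 9.01 and 8.72 in GAB, 7.72, 7.85 and 7.54 in gun4-1, and 7.85, 8.05 and 7.79 in Col-0, a 1.96-fold higher mean with GAB, and its lowest GAB array was 0.67 above every other array. LPR2, a multicopper oxidase of the root response to low phosphate, had 8.11, 7.94 and 7.85 in GAB, 7.44, 7.44 and 7.28 in gun4-1, and 7.21, 7.27 and 7.18 in Col-0. MTP11, a manganese transporter of the secretory pathway, had 9.54, 9.34 and 9.34 in GAB, 8.64, 8.76 and 8.31 in gun4-1, and 8.79, 8.82 and 8.63 in Col-0. LPR2 and MTP11 were 1.67-fold and 1.58-fold higher. None of the 5 probe sets on the list of iron and metals was called. None of the 3 on the list for nitrate, sulfate and phosphate transport, which were APS3, APS4 and NRT2.5, was called either. The lists were matched by symbol, and not every match has the role named. APS3 and APS4 are not transporter genes, and FRO1 on the iron list is At5g67590, not a ferric reductase gene. The shares called over all probe sets were 0.769% higher and 0.69% lower.

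The plastid genome, with 69 of the probe sets with 1 gene, gave 1 of the 46 genes, ycf3, which codes for an assembly factor of photosystem I. It had 8.12, 8.04 and 8.09 in GAB, 7.26, 7.50 and 7.72 in gun4-1, and 7.81, 7.23 and 7.12 in Col-0. The GAB arrays lay within 0.08 of one another, while Col-0 replicate 1 stood 0.58 above the next Col-0 array. The mean was 1.62-fold higher with GAB, but ycf3 was called neither against Col-0 nor against gun4-1. Without Col-0 replicate 3 its difference from Col-0 was 0.56, under the limit of 0.585.

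Of the 38 higher genes 13 are given no role, and their differences ran from 0.60 to 2.15. The first of them was At1g73120, with 11.83, 11.99 and 11.94 in GAB, 9.89, 9.77 and 9.95 in gun4-1, and 9.60, 9.74 and 9.96 in Col-0. Its gap of 1.87 between the lowest GAB array and the highest other array was the widest of all 46 genes. At2g41730 followed with 7.75, 7.97 and 7.85 in GAB, 6.52, 6.33 and 6.13 in gun4-1, and 6.01, 6.11 and 6.09 in Col-0, read by a probe set that the array maker marks as open to cross-hybridisation, the only such one among the 46. At4g01870 was 2.39-fold, At5g01740 2.36-fold and At4g18650 2.12-fold higher with GAB, and At5g45410 was 1.88-fold, At1g56320 1.80-fold and At2g19660 1.76-fold higher. The remaining 5 of these genes were At2g47200, At4g25030, At5g51680, At1g24095 and At1g43020, with differences of 0.72, 0.63, 0.61, 0.61 and 0.60.

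**Figure D3:**
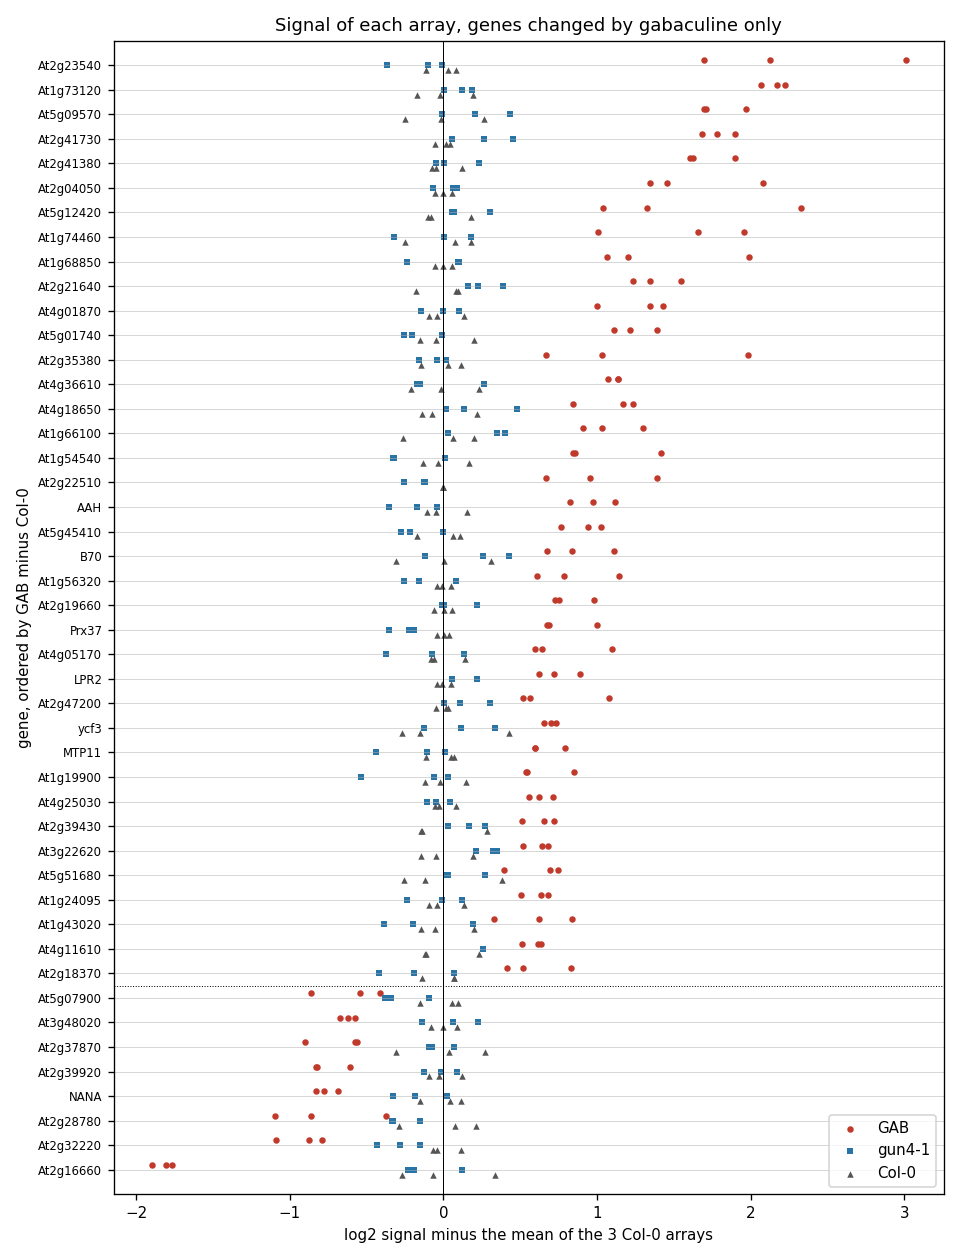
All 46 genes, 1 row each, ordered by the difference between GAB and Col-0, with the log2 signal of every array less the mean of the 3 Col-0 arrays on the horizontal axis; red circles are GAB, blue squares gun4-1 and grey triangles Col-0, 3 points each, and a dotted line parts the 38 higher from the 8 lower genes. At2g23540 and At2g35380 have the widest spreads of red points, and At2g16660 lies far to the left of the other 7 lower genes.

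The 8 lower genes held 1 large difference. At2g16660, a transporter of the major facilitator superfamily, had 6.37, 6.34 and 6.24 in GAB, 8.26, 7.91 and 7.95 in gun4-1, and 8.07, 8.48 and 7.87 in Col-0. GAB was at 0.283 of the Col-0 level, and its highest array was 1.5 below the lowest of the 6 others, which overlapped fully between gun4-1 and Col-0. The next was At2g32220, a gene of a cytosolic ribosomal protein of the L27e family, with 6.82, 7.04 and 7.12 in GAB, 7.76, 7.48 and 7.63 in gun4-1, and 7.84, 7.87 and 8.02 in Col-0. It was at 0.529 of the Col-0 level, with gun4-1 between GAB and Col-0 and 0.29 below Col-0.

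NANA, an aspartic protease of chloroplasts, had 8.90, 8.76 and 8.81 in GAB, 9.61, 9.26 and 9.40 in gun4-1, and 9.44, 9.70 and 9.63 in Col-0, and was at 0.589 of the Col-0 level. The lipid transfer protein gene At2g37870 was at 0.624 of it, opposite in direction to its higher relatives At3g22620 and At2g18370. At5g07900, of the family of mitochondrial transcription termination factors, was at 0.657, with 7.56, 7.43 and 7.11 in GAB, 7.88, 7.63 and 7.59 in gun4-1, and 7.82, 8.02 and 8.07 in Col-0. Its highest GAB array was 0.03 below the lowest gun4-1 array, the narrowest gap of the 8. Without a role given were At2g28780, At2g39920 and At3g48020, at 0.583, 0.594 and 0.650 of the Col-0 level.

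The distances between the arrays, which the choice used, are given as a description. For 25 of the 38 higher genes and 3 of the 8 lower genes the gap between GAB and the nearest other array was wider than the whole range of the 6 arrays of gun4-1 and Col-0. The median gap was 0.54 for the higher and 0.36 for the lower genes. In gun4-1 the mean lay above Col-0 for 18 and below it for 20 of the higher genes (median -0.01), while for the lower genes it lay above for 1 gene and below it for 7 (median -0.13). The limit for gun4-1 allowed both signs, and over all probe sets the median was 0.03. The differences of gun4-1 and of GAB are taken from the same Col-0 arrays, however, so the choice can itself tilt these signs. Nothing is read from them.

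Signals were not high throughout. The mean over the 9 arrays was under 5 on the log2 scale for 12 of the 46 genes, all of them higher ones, which is 26.1% beside 40.2% of all probe sets with 1 gene. Of these, 9 were among the 18 genes that were more than 2-fold higher, and 8 belonged to the lipid and wall set. This mean includes the GAB arrays, which the choice required to lie high for the higher genes, so nothing is read from the 26.1%. The Col-0 mean alone was under 5 for 15 of the higher genes and for none of the lower ones. For 13 of these 15 the GAB mean was 5 or above. The SD within GAB had a median of 0.18 for the higher and 0.14 for the lower genes, beside 0.09 over all probe sets. In Col-0 these medians were 0.14, 0.13 and 0.10.

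Genes close to the limits differed little across them. Just inside the limit against Col-0 were At2g18370 and At4g11610, each with a difference of 0.59, and just outside were At1g01390 and SAT32 with 0.58. Downward, At5g07900 and At3g48020 lay inside at -0.61 and -0.62, and At1g68580 and At2g19780 outside at -0.56 and -0.55. Just inside the limit for gun4-1 were At3g22620 (0.29) and At1g66100 (0.26) among the higher genes and At2g32220 (-0.29) and At2g28780 (-0.27) among the lower ones. Just outside it, At5g09480 and At5g13900 were 1.72 and 1.39 higher with GAB and 0.31 and 0.35 lower in gun4-1, and downward stood MSRB5, a methionine sulfoxide reductase gene, with -0.30 in gun4-1, and At5g04960 with 0.31.

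An array left out of the choice is the only value that the choice did not use. The genes were therefore chosen again 9 times, each time without 1 array, and that array was then read. It was set against arrays that had been used, so a low or high reading of these by chance still counts toward the numbers below. The shares of all probe sets beside them involve no choice, while the genes were chosen for a wide difference. The 2 are therefore not alike, and the numbers are given as a description. Without GAB replicate 1, 44 genes were chosen as higher, and in 40 of them the array left out lay above all 6 arrays of gun4-1 and Col-0, as it did for 10.4% of all probe sets. Without GAB replicates 2 and 3 these numbers were 37 of 39 and 37 of 38, beside 13.9% and 13.1% of all probe sets. The left-out GAB arrays stood 0.76, 0.79 and 1.00 above the Col-0 mean in the median over the genes chosen without them. When an untreated array was left out, it lay below the GAB arrays for 37 of 39, 39 of 43 and 34 of 34 genes for gun4-1 replicates 1, 2 and 3, and for all of the 33, 43 and 32 genes for Col-0 replicates 1, 2 and 3. Over all probe sets these shares were 32.2%, 30.2% and 26.0% for the gun4-1 arrays and 29.3%, 27.1% and 28.7% for the Col-0 arrays.

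Among the lower genes the numbers were smaller and moved more. Without GAB replicate 1, 17 genes were chosen as lower, of which 11 had that array below all 6 others, and without GAB replicates 2 and 3 it was 7 of 8 and 8 of 10, beside 12.9%, 13.2% and 18.2% of all probe sets. Without Col-0 replicate 3 the choice grew to 20 genes, and only in 7 of the 20 did that array lie above the GAB arrays, beside 29.2% of all probe sets. Its median over the 20 genes was 0.55 below the mean of the other Col-0 arrays. Without the other Col-0 arrays and each gun4-1 array, 7 to 12 genes were chosen, and the array left out lay on its side in all but 1 of them at most.

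**Figure D4:**
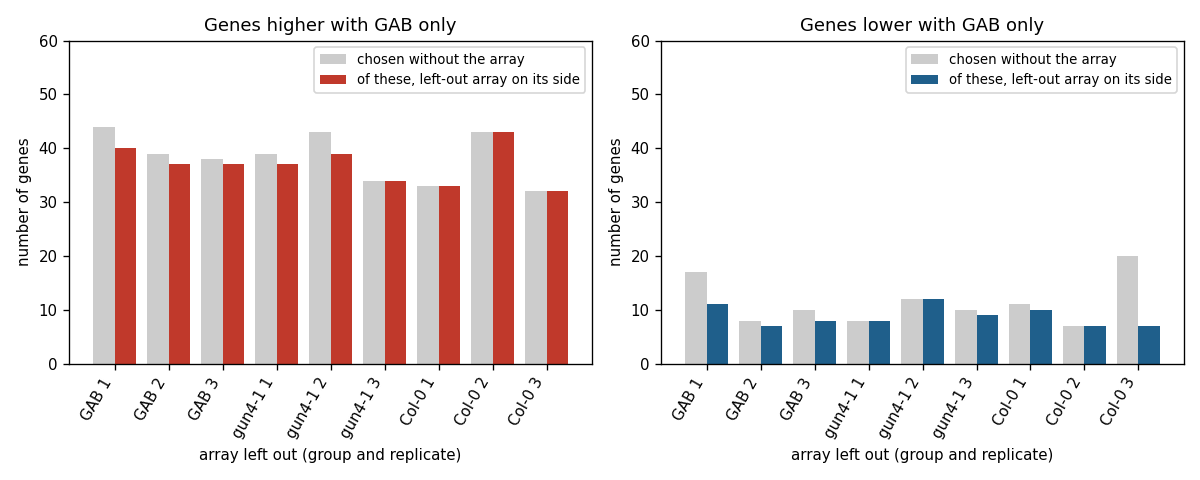
Numbers of genes chosen as higher (left panel) and lower (right panel) when the array named on the horizontal axis was left out (grey bars) and, of these, the number in which the left-out array lay on the same side as in the choice (coloured bars). The coloured bars stay close to the grey ones for the higher genes, while for the lower genes they reach 11 of 17 without GAB replicate 1 and 7 of 20 without Col-0 replicate 3.

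Chromosome 2 held 17 of the 46 genes (37.0%), 12 higher and 5 lower ones, beside 16.3% of all probe sets with 1 gene. Chromosome 1 held 10 (21.7% beside 25.5%), chromosome 3 held 3 (6.52% beside 20.3%), chromosome 4 held 9 (19.6% beside 14.5%) and chromosome 5 held 6 (13.0% beside 22.3%). Both shares are taken over probe sets with 1 gene, and their differences were not tested. The dirigent-like gene At2g39430 and MTP11 (At2g39450) are neighbours with 3 protein-coding genes between them, and both were higher with GAB.

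Pathways near the target of GAB were read from lists of named genes. Among aminotransferases and enzymes of glutamate, GSA1, which codes for the aminotransferase that GAB inhibits, had a mean of 10.3 in GAB, 10.3 in gun4-1 and 10.4 in Col-0. DELTA-OAT, an aminotransferase of ornithine, differed by 0.01 with GAB and by 0.53 in gun4-1, and BCAT4 differed by 0.21 with GAB, so that none of these 3 was called or chosen. Of 12 tetrapyrrole genes 1 was called, PORB, a protochlorophyllide reductase gene that was 0.90 lower with GAB (-0.39 from Col-0 in gun4-1). The median over the list was 0.01. None of the 8 probe sets on the list of nuclear light-harvesting and photosystem genes, which also holds RCA, was called, with a median of -0.05. Of the 10 cell division and 3 heat shock probe sets 1 each was called lower. No call fell on the lists for other glutathione transferases (3 probe sets), jasmonate (4), ethylene (1), auxin (12), abscisic acid, cold and drought (9), receptor-like kinases (1), sugar and starch (19) or flavonoids and phenylpropanoids (6). Over all probe sets 0.769% were called higher and 0.69% lower. Lists this short would then hold few calls or none, so a lack of calls is not read as a lack of response. Of the 46 genes, only At2g04050 and Prx37 were on any of the 19 lists, and 39 of the 46 carry a locus code as their symbol.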

How the data were processed

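RNA of 9 seedling samples was hybridised to ATH1 arrays of Affymetrix. The authors deposited log2 signals, summarised by robust multi-array averaging, and the processing notes name Affymetrix Expression Console. These values were used as deposited. From 22810 probe sets, 64 control probe sets were removed. Genes were named through the platform annotation (13513 probe sets with 1 gene, 503 with several, 8730 with none), and all 46 genes matched a RefSeq entry. Differences are those of group means. limma 3.58.1 in R 4.3.3 was fitted over 3 groups and all probe sets (6 residual and 5.91 prior degrees of freedom), with the adjustment and fold limit of the study's methods, and checked on simulated data. Named are the 15 genes with the largest difference in each direction, those nearest the limits, every chosen gene with a known function and up to 3 other genes per list. Genes, limits and the 19 gene lists, matched by symbol, were chosen with earlier results of these data known. From the lists 3 mismatched symbols and plastid-encoded genes were taken out after the values were seen. Some symbols without the role of their list remain, such as APS3, APS4, FRO1 and PAP20, and the list sizes and medians include them. Roles of genes known by a locus code come from general knowledge, not from the annotation. Alternatives changed scaling, limits, filters, fit and arrays. The planned motif search in promoters was not run, as no sequence table was used here.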

Additional observations from a re-analysis of the deposited data

How the results depend on the processing

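The higher genes numbered 38 and stayed at 26 to 43 with quantile normalization, median centring, either other limit for gun4-1, no demand on single arrays, dim or ambiguous probe sets left out, or the gene families kept, but were 18 with a limit of 1 for GAB minus Col-0. Leaving out 1 array gave 32 to 44. The genes were not the same throughout: 31 of the 41 with median centring and 29 of the 32 without Col-0 replicate 3 were among the 38. The 8 lower genes became 13 with each array centred on its median (6 of them among the 8), 1 with a limit of 1 for GAB minus Col-0, and 5 and 17 with limits of 0.2 and 0.4 for gun4-1, and 7 to 20 when 1 array was left out. Centring adds 0.04 to every difference of GAB from Col-0 and 0.10 to every difference of gun4-1 from Col-0, which moves genes across the narrow limit for gun4-1. The cause of the other shifts was not tested. Called against Col-0 were 27 of the higher genes, and 17 to 27 when 1 array was left out, and 5 of the lower genes, 2 to 5 when 1 array was left out and 8 with Benjamini-Hochberg adjustment. With the replicate block 30 higher and 5 lower genes were called, beside 192 and 188 of all probe sets against 175 and 157 without it. Same-numbered GAB and Col-0 arrays correlated in their deviations from the group means at 0.024 to 0.265. Over all 3 groups, same-numbered pairs ran from -0.067 to 0.265 and pairs with different numbers from -0.335 to 0.187. Of the 9 arrays, 3 correlated best with their own number in both other groups. Whether arrays of the same number share a batch is not settled by these values. The differences of the 46 genes from Col-0 kept their sign in all 368 values recomputed. With a GAB or Col-0 array left out, the choice had fixed that sign, and the changes of scaling moved no gene by more than 0.05. This is therefore no support for the genes. The promoter motif alternatives were not run. Groups of 3 arrays, dim signals (12 genes by the mean over all arrays, 15 by the Col-0 mean) and unnamed probe sets limit what can be read.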
